A study of Homo sapiens with 16 samples.

Results

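SH-SY5Y cells, an established human neuroblastoma line that can be driven toward a neuron-like state, were differentiated on 3 electrically conducting films and collected without electrical stimulation. The films were PEDOT:PSS, a conducting polymer, ITO, a transparent indium tin oxide film, and P(rGO), a composite of polymer and reduced graphene oxide. Each film contributed 2 RNA sequencing libraries, so 6 of the 16 libraries of the series were compared, by film label, over the 18081 genes with enough counts to be tested. The remaining libraries were 6 from stimulated films (0.1 V peak to peak, 1 Hz square wave, 8 h per day on the last 4 days) and 4 from plates, of which 2 were differentiated and 2 untreated. All film cells, with or without stimulation, and the differentiated plates had the same schedule. They spent 2 days in growth medium, then serum was stepped down to 5%, 2.5% and 1% on days 2, 3 and 5, with retinoic acid at 10 µM from day 3 to day 6 and brain-derived neurotrophic factor (BDNF) at 50 ng/mL for 4 days. Before seeding, poly-L-lysine and laminin had been laid on all films. Replicate 1 and replicate 2 are separate libraries, but nothing in the labels says that they came from separate cultures, so every p-value here rests on the scatter of these libraries alone, and that scatter may be technical.

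Retinoic acid binds nuclear receptors that act on gene promoters, BDNF signals through the receptor tyrosine kinase TrkB, and serum withdrawal removes mitogens. Under such treatment neuroblastoma cells extend neurites and leave the cell cycle. Genes of DNA replication are switched on before S phase by E2F factors, and genes of mitosis follow in G2 through a promoter element called the cell cycle genes homology region (CHR) and through CCAAT boxes, which bind NF-Y. In a mixed culture such genes report how many cells are dividing and how strongly each does so. In bulk RNA a larger number of cells of a type and more RNA per cell cannot be told apart.

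Of the 35 gene lists described, mitosis and DNA replication had the largest median differences between PEDOT:PSS and P(rGO), so promoters are shown for 2 mitotic genes (CCNB2 and TOP2A) and 2 genes of nucleotide supply for replication (TK1 and TYMS). Each window is from RefSeq on GRCh38.p14 and runs 5′ to 3′ along the gene, from 250 bases before the annotated start to 50 bases after it. Capitals mark the CHR letters TTTGAA, the CCAAT box and the E2F-type letters GCGGGAA, on either strand. The 3 motifs were searched as exact letters and share no letters in these windows.
CCNB2, chr15:59104896-59105195, plus strand: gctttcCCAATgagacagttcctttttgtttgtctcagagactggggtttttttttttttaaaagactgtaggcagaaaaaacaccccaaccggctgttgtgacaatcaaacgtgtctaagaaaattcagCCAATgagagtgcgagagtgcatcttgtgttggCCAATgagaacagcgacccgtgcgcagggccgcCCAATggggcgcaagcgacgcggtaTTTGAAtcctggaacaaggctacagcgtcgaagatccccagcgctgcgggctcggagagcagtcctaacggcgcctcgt
TOP2A, chr17:40417847-40418146, minus strand: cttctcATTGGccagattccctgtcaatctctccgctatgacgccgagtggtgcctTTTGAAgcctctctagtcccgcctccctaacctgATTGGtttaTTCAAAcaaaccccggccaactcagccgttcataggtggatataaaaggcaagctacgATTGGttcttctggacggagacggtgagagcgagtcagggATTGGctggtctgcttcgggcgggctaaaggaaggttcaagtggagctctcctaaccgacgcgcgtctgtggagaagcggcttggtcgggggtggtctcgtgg
TK1, chr17:78187003-78187302, minus strand: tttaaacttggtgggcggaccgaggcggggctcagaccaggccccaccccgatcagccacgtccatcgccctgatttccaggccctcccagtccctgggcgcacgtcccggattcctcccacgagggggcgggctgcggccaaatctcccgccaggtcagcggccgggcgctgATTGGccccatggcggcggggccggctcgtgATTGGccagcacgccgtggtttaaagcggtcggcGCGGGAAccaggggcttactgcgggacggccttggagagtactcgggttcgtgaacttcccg
TYMS, chr18:657403-657702, plus strand: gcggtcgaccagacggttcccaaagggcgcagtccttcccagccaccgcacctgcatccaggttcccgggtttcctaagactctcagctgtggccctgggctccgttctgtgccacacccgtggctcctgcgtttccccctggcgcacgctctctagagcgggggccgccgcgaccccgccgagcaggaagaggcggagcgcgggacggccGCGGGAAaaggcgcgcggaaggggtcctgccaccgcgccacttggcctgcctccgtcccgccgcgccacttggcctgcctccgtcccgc

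The CCNB2 window held 1 CHR match beginning 29 bases before the start and 4 CCAAT boxes, and the TOP2A window held 2 CHR matches and 4 CCAAT boxes. The TK1 window, the second of 2 for that gene, held 1 E2F-type match beginning 12 bases before the start and 2 CCAAT boxes, while the other TK1 window held none of the 3 motifs. The TYMS window held 1 E2F-type match and neither of the other motifs. Windows of further division genes were searched as well, and not all held these letters. CDC20 and CDK1 held TTTGAA, while CCNB1 and CCNA2 did not. PCNA and GINS2 held GCGGGAA in 1 window each, while RRM2, ORC1, MCM2, MCM6, CDC6 and CDC45 did not. Across the mitosis list, 25 genes had 27 windows, of which 20 (74.1%) held TTTGAA and 0 held GCGGGAA. Across the DNA replication list, 24 genes had 34 windows, of which 1 (2.94%) held TTTGAA and 14 (41.2%) held GCGGGAA. Among all 35116 RefSeq windows of that length, 15.2% held TTTGAA, 6.55% held GCGGGAA and 34.6% held a CCAAT box, against 81.5% of the mitosis and 67.6% of the replication windows for the CCAAT box. A match describes letters in a window and is not evidence of a factor bound there.

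The 6 libraries held 15600410 to 18193123 counts in genes, and mitochondrial genes took 4.78% to 6.50% of them. HAND2, a defining gene of the line's noradrenergic identity, was present in all 6 (820 to 912 in CPM, counts scaled to a common library size), while TH, the enzyme that starts catecholamine synthesis, had at most 43 counts and CHGA none. Of the 12 Schwann and glial markers listed, SOX10, MBP, FABP7 and OLIG2 were at 0 in all 6 libraries. The list summed to 13.4 to 19.3 CPM in these libraries, and 4 of its members had enough counts to be tested. Unstimulated ITO replicate 2 stood apart from the other libraries. On principal component 1, with 38.5% of the variance, it lay at 20.6 and the other 5 lay between -8.0 and -0.91. In that library 60 of the tested genes were at least 2-fold above all 5 others and 16 at least 2-fold below (with 0.5 added to each CPM), whereas any other library had at most 1 above and 5 below. The fibroblast list summed to 370 and 463 CPM in ITO replicates 1 and 2, against 356 to 388 CPM on PEDOT:PSS and 338 to 383 CPM on P(rGO). One fibroblast collagen, COL3A1, had 196 and 1549 counts on ITO, against 168 to 232 counts in the other 4 libraries. The markers TCF21 and POSTN were at 0 throughout. Results that rest on ITO replicate 2 are given with and without it.

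**Figure D1:**
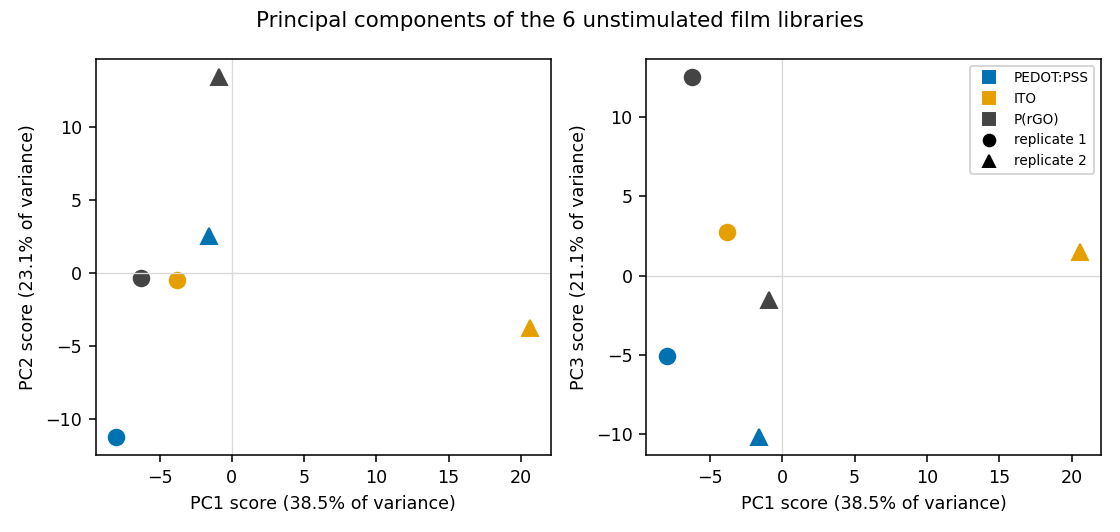
Principal components 1 to 3 of log2 CPM over the tested genes in the 6 unstimulated film libraries (colour, film; marker shape, replicate; axes, component scores with their share of the variance). ITO replicate 2 lies alone at 20.6 on component 1, which holds 38.5% of the variance.

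To ask whether the film material alone changed expression, the 3 film pairs and a joint test of the 3 films were fitted with edgeR's quasi-likelihood test, with 1 mean for each of the 8 groups over all 16 libraries and Benjamini-Hochberg adjustment. No gene passed an adjusted p of 0.05 in any of these 4 tests, and the smallest adjusted p was 1 in each. Between PEDOT:PSS and P(rGO), 0.0% of genes were called and 243 genes (1.34%) had an unadjusted p under 0.05, of which 160 (0.885%) lay higher and 83 (0.459%) lower on PEDOT:PSS. Between ITO and P(rGO) 0.0% were called and 299 (1.65%) had an unadjusted p under 0.05, 172 (0.951%) higher and 127 (0.702%) lower on ITO. Between PEDOT:PSS and ITO 0.0% were called and 283 (1.57%) had an unadjusted p under 0.05, 135 (0.747%) higher and 148 (0.819%) lower on PEDOT:PSS. The joint test called 0.0% and had 239 genes (1.32%) under that limit. With DESeq2 the comparison of PEDOT:PSS with P(rGO) had 0 calls, that of ITO with P(rGO) 0, that of PEDOT:PSS with ITO 2 (0.0111%) and the joint test 1 (0.00553%).

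The 16-library fit pools its spread over groups that varied very differently. The biological coefficient of variation within a group was 7.52% for unstimulated PEDOT:PSS, 11.8% for ITO and 9.10% for P(rGO), against 18.1% for the differentiated and 36.2% for the untreated plates. A fit of the 6 unstimulated libraries alone, an alternative with 3 residual degrees of freedom, had a median standard error (SE) of 0.147 on the log2 scale, against 0.256 in the 16-library fit. Of 16675 genes tested there, 21 (0.126%) were called in PEDOT:PSS against P(rGO), 19 (0.114%) higher and 2 (0.012%) lower on PEDOT:PSS, and 890 (5.34%) had an unadjusted p under 0.05. ITO against P(rGO) had 1 call (0.006%), with 776 genes (4.65%) under that limit, and the joint test had 1 call (0.006%), with 934 genes (5.6%). PEDOT:PSS against ITO had 0 calls, with 966 genes (5.79%) under the limit. The 21 calls fell to 0 without PEDOT:PSS replicate 1, to 1 without P(rGO) replicate 1 and to 3 without P(rGO) replicate 2, and were 0 when only the 4 libraries of these 2 films were fitted. Every call named below as one of the 6-library fit carries that limit. The calls of ITO against P(rGO) and of the joint test likewise depended on single P(rGO) libraries. No gene named below passed the 16-library test, so its differences there are given as values.

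Genes of cell division lay higher on PEDOT:PSS relative to P(rGO), with ITO between them. Of the 30 mitosis genes listed, 29 were tested, and 28 lay higher on PEDOT:PSS relative to P(rGO) with no overlap between the 2 films' libraries. Their median log2 difference was 0.69, against -0.01 over all tested genes, of which 17.6% lay higher on PEDOT:PSS with no overlap. In the 16-library fit 17 of the 29 had an unadjusted p under 0.05 and in the 6-library fit 6 were called, all higher. All 28 DNA replication genes likewise lay higher on PEDOT:PSS with no overlap, at a median of 0.50, with 3 under an unadjusted p of 0.05 in the 16-library fit and 3 called in the 6-library fit. Genes of one list move together within a library, so these counts are not separate observations. The lists were chosen with earlier results of these data known.

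Each library's mean over the list shows the same order and the spread behind it. For mitosis the mean of log2(CPM + 0.5) was 5.26 and 4.89 in the PEDOT:PSS libraries, 4.66 and 4.71 on ITO, and 4.39 and 4.43 on P(rGO). PEDOT:PSS replicate 1 was the highest and the P(rGO) libraries the lowest, and no 2 films overlapped. For DNA replication the means were 5.82 and 5.71 on PEDOT:PSS, 5.45 and 5.32 on ITO, and 5.30 and 5.20 on P(rGO), so ITO lay closer to P(rGO). The median of the mitosis list between PEDOT:PSS and P(rGO) was 0.46 without PEDOT:PSS replicate 1. All film libraries had less mitotic RNA than untreated plates. The 30 mitosis genes summed to 1637 and 1333 CPM on PEDOT:PSS, 1113 and 1138 CPM on ITO, and 868 and 935 CPM on P(rGO). They summed to 1713 and 926 CPM on differentiated plates, and 3766 and 5072 CPM on untreated plates. The 2 differentiated plate libraries were thus as far apart as the films, since P(rGO) replicate 1 alone among the 6 lay outside their range.

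**Figure D2:**
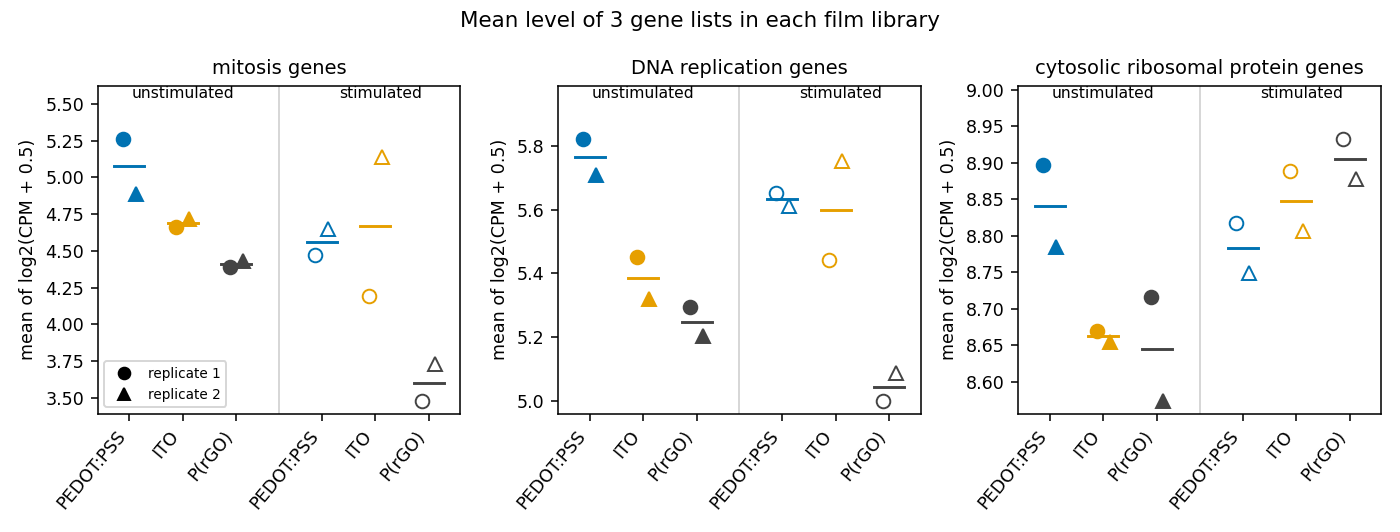
Mean log2(CPM + 0.5) of the mitosis, DNA replication and cytosolic ribosomal protein lists (panels) in each of the 12 film libraries, by film without and with stimulation (marker shape, replicate; horizontal bars, means of the 2 libraries). Without stimulation the mitosis mean is 5.26 and 4.89 on PEDOT:PSS, 4.66 and 4.71 on ITO, and 4.39 and 4.43 on P(rGO).

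Among the mitotic genes, CCNB2, the cyclin B2 subunit of the kinase that starts mitosis, was at 25.8 and 21.2 CPM on PEDOT:PSS, 17.7 and 17.2 CPM on ITO, and 10.4 and 11.5 CPM on P(rGO). The 3 films did not overlap and P(rGO) was lowest. Between PEDOT:PSS and P(rGO) the difference was 1.10 on the log2 scale (SE 0.39, unadjusted p = 0.014) in the 16-library fit and 1.10 (SE 0.14, adjusted p = 0.022) in edgeR's 6-library fit. TOP2A, which untangles DNA before chromosomes separate, was at 272 and 221 CPM on PEDOT:PSS, 183 and 177 CPM on ITO, and 134 and 145 CPM on P(rGO). Again the films did not overlap, and the difference between PEDOT:PSS and P(rGO) was 0.82 (SE 0.35) in the 16-library fit and 0.83 (SE 0.10, edgeR adjusted p = 0.022) in the 6-library fit.

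The mitotic kinase CDK1 was at 50.7 and 41.6 CPM on PEDOT:PSS, 36.1 and 35.0 CPM on ITO, and 29.3 and 26.2 CPM on P(rGO). It lay 0.73 higher on PEDOT:PSS relative to P(rGO) in log2 units (SE 0.26), and was called by the 6-library fit (edgeR adjusted p = 0.045). CCNA2, cyclin A2, which acts in S phase and G2, was at 32.7 and 25.3 CPM on PEDOT:PSS, 19.2 and 19.8 CPM on ITO, and 13.6 and 17.2 CPM on P(rGO). It did not pass in the 6-library fit (edgeR adjusted p = 0.054), although its films did not overlap. The proliferation marker MKI67 was at 167 and 157 CPM on PEDOT:PSS, 123 and 122 CPM on ITO, and 73.3 and 106 CPM on P(rGO), with the 2 P(rGO) libraries apart from each other and both below ITO. The other mitosis genes that the 6-library fit called higher on PEDOT:PSS were CENPF, a kinetochore protein, KIF11, the motor that separates spindle poles, and CCNB1, cyclin B1, at log2 differences of 0.70, 0.71 and 0.74. The 1 mitosis gene that lay lower was PRC1, with only 5 and 5 counts on PEDOT:PSS and 7 and 7 counts on P(rGO), a level too low for the 6-library fit.

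Among the genes of DNA synthesis, TK1, the thymidine kinase of the salvage pathway, was at 33.6 and 29.2 CPM on PEDOT:PSS, 20.9 and 22.2 CPM on ITO, and 14.7 and 16.8 CPM on P(rGO). The films did not overlap, and PEDOT:PSS exceeded P(rGO) by 1.00 in log2 units (SE 0.43) in the 16-library fit and by 1.00 (SE 0.13, adjusted p = 0.022) in edgeR's 6-library fit. RRM2, the regulated subunit of ribonucleotide reductase, was at 70.0 and 59.9 CPM on PEDOT:PSS, 45.8 and 41.5 CPM on ITO, and 37.0 and 36.2 CPM on P(rGO). Its difference of 0.83 was called by the 6-library fit (SE 0.11, edgeR adjusted p = 0.022) and had an unadjusted p of 0.11 in the 16-library fit. TYMS, which makes thymidylate, was at 95.0 and 84.3 CPM on PEDOT:PSS, 66.6 and 63.8 CPM on ITO, and 56.2 and 55.2 CPM on P(rGO). It too was called by the 6-library fit, at 0.69 (SE 0.09, edgeR adjusted p = 0.028), and its P(rGO) libraries lay within 1 CPM of each other.

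ORC1, the largest subunit of the complex that marks replication origins, was at 15.6 and 13.3 CPM on PEDOT:PSS, 9.24 and 10.0 CPM on ITO, and 8.36 and 8.91 CPM on P(rGO). PEDOT:PSS stood above both other films, by 0.58 over ITO (unadjusted p = 0.046) and by 0.74 over P(rGO) (unadjusted p = 0.015). PCNA, the sliding clamp of the replication fork, differed less, at 125 and 112 CPM on PEDOT:PSS, 99.1 and 91.9 CPM on ITO, and 85.1 and 85.3 CPM on P(rGO). Outside the 2 lists, the 6-library fit also called division-linked genes higher on PEDOT:PSS relative to P(rGO). IQGAP3, a scaffold protein of dividing cells, was at 119 and 102 CPM on PEDOT:PSS, 85.4 and 86.3 CPM on ITO, and 67.6 and 56.7 CPM on P(rGO), a difference of 0.84 between PEDOT:PSS and P(rGO) in the 6-library fit (SE 0.11, edgeR adjusted p = 0.022). FOXM1 and MYBL2, transcription factors of the mitotic programme, were called at 0.80 and 0.76. Of the 21 calls, 9 belonged to the mitosis or replication list.

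**Figure D3:**
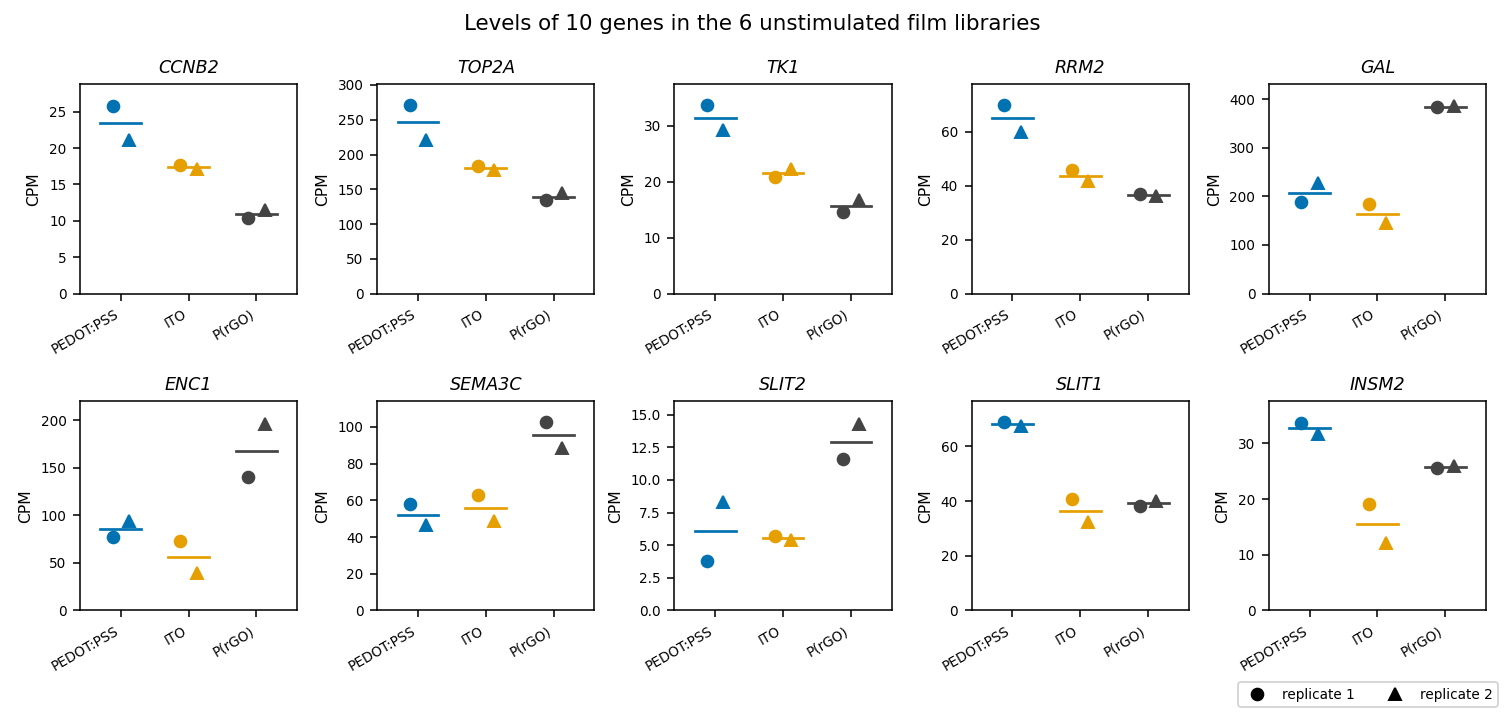
CPM of 10 genes in the 6 unstimulated film libraries, with each axis starting at 0 (columns of points, films in the order PEDOT:PSS, ITO, P(rGO); marker shape, replicate; horizontal bars, means). CCNB2, TOP2A, TK1 and RRM2 are highest on PEDOT:PSS and lowest on P(rGO), and GAL, ENC1 and SLIT2 are highest on P(rGO).

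ITO lay between the other films for most division genes, and its differences were smaller. Of the 29 mitosis genes 28 lay higher on ITO than on P(rGO), 24 of them without overlap, at a median of 0.33. All 29 lay higher on PEDOT:PSS than on ITO, 22 without overlap, at a median of 0.42, which was 0.23 without PEDOT:PSS replicate 1. Over all tested genes 14% lay higher on ITO than on P(rGO) without overlap, and 18.0% lay higher on PEDOT:PSS than on ITO. For DNA replication the median was 0.16 for ITO over P(rGO), which was 0.06 without ITO replicate 1 and 0.09 without P(rGO) replicate 2, and 0.39 for PEDOT:PSS over ITO. In the 16-library fit none of the mitosis genes had an unadjusted p under 0.05 in either comparison with ITO.

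Several genes of neuropeptide signalling, axon guidance and neurite growth lay highest on P(rGO). GAL, which encodes the neuropeptide galanin, was at 187 and 228 CPM on PEDOT:PSS, 184 and 145 CPM on ITO, and 383 and 386 CPM on P(rGO). Both P(rGO) libraries lay far above the other 4. In edgeR's 6-library fit GAL was called lower on PEDOT:PSS relative to P(rGO), at -0.88 (SE 0.12, adjusted p = 0.035), and lower on ITO than on P(rGO), at -1.21 (SE 0.12, adjusted p = 0.013), and it was the 1 gene called by the joint test (edgeR adjusted p = 0.028). In the 16-library fit the same differences were -0.89 (SE 0.35) and -1.22 (SE 0.35). They ranged over -1.04 to -0.75 and -1.41 to -1.06 with each library left out. The comparisons with PEDOT:PSS and with ITO share the 2 P(rGO) libraries, so they are not independent of each other.

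ENC1, an actin-associated protein expressed in developing neurons, was at 77.1 and 94.4 CPM on PEDOT:PSS, 73.5 and 39.0 CPM on ITO, and 141 and 196 CPM on P(rGO). Both P(rGO) libraries were above the rest, while the libraries of PEDOT:PSS and ITO did not overlap and lay closer together. ENC1 differed by -0.97 between PEDOT:PSS and P(rGO) (SE 0.34, unadjusted p = 0.013) and by -1.58 between ITO and P(rGO) (SE 0.35, unadjusted p = 0.00045). Of the secreted guidance cues, SEMA3C was at 57.8 and 46.7 CPM on PEDOT:PSS, 62.8 and 49.0 CPM on ITO, and 103 and 88.6 CPM on P(rGO). It was called lower on PEDOT:PSS relative to P(rGO) in the 6-library fit, at -0.87 (SE 0.14, edgeR adjusted p = 0.045), whereas its difference of -0.77 between ITO and P(rGO) in the 16-library fit had an unadjusted p of 0.026. SLIT2, a repellent cue read by Robo receptors, was at 3.77 and 8.33 CPM on PEDOT:PSS, 5.68 and 5.36 CPM on ITO, and 11.6 and 14.3 CPM on P(rGO). P(rGO) again exceeded every other library, and the PEDOT:PSS replicates lay on either side of ITO.

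SLIT1, the related cue, had the opposite pattern, at 68.9 and 67.4 CPM on PEDOT:PSS, 40.6 and 32.3 CPM on ITO, and 38.2 and 40.0 CPM on P(rGO). PEDOT:PSS stood above the other 2 films, which overlapped. Its log2 difference from P(rGO) was 0.80 (SE 0.22) in the 16-library fit and was called at 0.81 (SE 0.12, adjusted p = 0.035) in edgeR's 6-library fit, while that from ITO was 0.90 (SE 0.22, unadjusted p = 0.0010) and did not pass there (edgeR adjusted p = 0.098). The axon guidance list did not move one way. Of its 30 tested genes 18 lay higher and 12 lower on PEDOT:PSS relative to P(rGO), at a median of 0.08.

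Other genes chosen by smallest p between PEDOT:PSS and P(rGO) were of mixed function. FBLN7, an extracellular matrix fibulin, was at 15.3 and 19.7 CPM on PEDOT:PSS, 13.0 and 14.6 CPM on ITO, and 10.3 and 10.5 CPM on P(rGO), with no overlap between films and a difference of 0.75 from P(rGO) (SE 0.20, unadjusted p = 0.0023). CDCA7L, a relative of the cell cycle gene CDCA7, was at 10.1 and 9.68 CPM on PEDOT:PSS, 5.98 and 5.53 CPM on ITO, and 5.32 and 4.05 CPM on P(rGO). FAM83D, a spindle protein, was at 26.6 and 22.3 CPM on PEDOT:PSS, 19.4 and 21.7 CPM on ITO, and 16.5 and 14.6 CPM on P(rGO). Both had all PEDOT:PSS values above all others. RADIL, an effector of the GTPase Rap, lay 0.42 higher on PEDOT:PSS relative to P(rGO), and the secreted protein FAM3C and the membrane protein STOM lay lower, at -0.36 and -0.67.

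Between ITO and P(rGO) the genes chosen by smallest p on the higher side were set by 1 ITO library. ID2, which blocks basic helix-loop-helix factors and responds to BMP signals, was at 13.1 and 70.5 CPM on ITO and at 10.4 and 7.52 CPM on P(rGO), with 13.6 and 15.9 CPM on PEDOT:PSS. Replicate 1 of ITO lay just below the PEDOT:PSS values and replicate 2 far above them. The log2 difference between ITO and P(rGO) was 2.22 (SE 0.56, unadjusted p = 0.0013) and 0.55 without ITO replicate 2. The related ID1 was at 4.32 and 27.7 CPM on ITO, 2.35 and 1.97 CPM on P(rGO), and 5.74 and 7.09 CPM on PEDOT:PSS, and its difference of 2.89 became 1.00 without that library. The imprinted zinc finger gene PEG3 was at 52.2 and 187 CPM on ITO and 41.2 and 50.1 CPM on P(rGO), and its difference of 1.39 became 0.19. CHST8, a sulfotransferase, and RAPGEF4, a cAMP-activated exchange factor, had differences of 1.37 and 0.74, which became 0.54 and 0.26.

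On the lower side, replicate 2 was again the more extreme ITO library, being the lower of the ITO pair in each gene. RGMB, a membrane-anchored BMP co-receptor, was at 66.5 and 49.0 CPM on ITO and 82.8 and 92.8 CPM on P(rGO), with PEDOT:PSS between at 74.0 and 81.1 CPM, and ITO differed from P(rGO) by -0.60 (SE 0.17, unadjusted p = 0.0035). Both ITO libraries were below the other 4. EPHA8, an ephrin receptor, was at 2.66 and 0.815 CPM on ITO and 4.98 and 5.67 CPM on P(rGO), a difference of -1.61 (SE 0.47, unadjusted p = 0.0039), which was -1.0 without ITO replicate 2. INSM2, a zinc finger factor of neuroendocrine cells, was at 19.2 and 12.1 CPM on ITO and 25.5 and 25.9 CPM on P(rGO), a difference of -0.72. With each library left out, the difference between ITO and P(rGO) ranged over -0.84 to -0.40 for RGMB and -1.09 to -0.42 for INSM2. For ENC1 it ranged over -2.11 to -1.19.

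Named genes were protein-coding, reached a mean of 5 CPM in 1 film and did not overlap between films. Among such genes INSM2 had the smallest p of the joint test and of the comparison of PEDOT:PSS with ITO. It was at 33.7 and 31.7 CPM on PEDOT:PSS, above P(rGO) and ITO, and no 2 films overlapped. Its log2 difference between PEDOT:PSS and ITO was 1.07 (SE 0.21, unadjusted p = 0.00015) in the 16-library fit, 0.77 without ITO replicate 2, and 1.06 in DESeq2, which called it (SE 0.22, adjusted p = 0.023). The other DESeq2 call was the chemokine CCL2, which had 1 and 2 counts on PEDOT:PSS, 13 and 132 counts on ITO, and 1 and 0 counts on P(rGO). Nearly all CCL2 reads were thus in ITO replicate 2.

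Also higher on PEDOT:PSS than on ITO were TACC2, a centrosome-associated coiled-coil protein, at 30.7 and 28.8 CPM against 18.0 and 16.8 CPM, with P(rGO) at 19.8 and 23.2 CPM. PHLDA1, a gene induced by ERK signalling, was at 5.68 and 6.65 CPM on PEDOT:PSS and 3.08 and 2.39 CPM on ITO, with P(rGO) at 4.58 and 5.79 CPM. Both genes kept the 2 films apart, with differences of 0.77 (SE 0.22) and 1.17 (SE 0.33). SPOCK1, a matrix proteoglycan, was at 19.1 and 20.7 CPM on PEDOT:PSS and 7.46 and 1.28 CPM on ITO, and its difference of 2.19 was 1.42 without ITO replicate 2. On the lower side SYTL2, an adaptor for vesicle transport, was at 2.36 and 3.41 CPM on PEDOT:PSS and 4.56 and 12.9 CPM on ITO, and its difference of -1.59 was -0.65 without that library. TSPAN5, a tetraspanin, was at 133 and 120 CPM on PEDOT:PSS and 160 and 178 CPM on ITO, with P(rGO) at 158 and 155 CPM, so that PEDOT:PSS was the film apart, by -0.42 from ITO (SE 0.14, unadjusted p = 0.0085).

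Transcripts of cytosolic ribosomal proteins lay slightly higher on PEDOT:PSS than on the other films. All 33 tested lay higher than on P(rGO), 28 without overlap (against 17.6% of all genes). Their median log2 difference was 0.20, with a range of 0.06 to 0.31. None had an unadjusted p under 0.05 in the 16-library fit, and the median was 0.13 without P(rGO) replicate 2. Against ITO, 32 of 33 lay higher on PEDOT:PSS, also at a median of 0.20 (0.13 without PEDOT:PSS replicate 1), and for ITO over P(rGO) the median was 0.01. RPS14, of the small subunit, was at 824 and 837 CPM on PEDOT:PSS, 682 and 641 CPM on ITO, and 721 and 699 CPM on P(rGO). These genes have near-identical processed copies, so counts of single members are uncertain.

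Cholesterol synthesis genes leaned the other way, with P(rGO) highest. Of 23 tested, 21 lay lower on PEDOT:PSS relative to P(rGO), 11 without overlap, and 21 lay lower on ITO than on P(rGO), 16 without overlap, at a median of -0.17 in each comparison. Between PEDOT:PSS and P(rGO) that median was -0.29 without PEDOT:PSS replicate 1 and -0.05 without replicate 2. Over all genes 18.0% lay lower on PEDOT:PSS relative to P(rGO) without overlap and 15.6% lay lower on ITO. HMGCS1, which makes the precursor of mevalonate, was at 430 and 323 CPM on PEDOT:PSS, 378 and 310 CPM on ITO, and 447 and 455 CPM on P(rGO). SC5D, a late sterol desaturase, was at 128 and 114 CPM on PEDOT:PSS, 104 and 113 CPM on ITO, and 131 and 147 CPM on P(rGO), a difference of -0.36 between ITO and P(rGO) (SE 0.13, unadjusted p = 0.013). No cholesterol gene passed in the 16-library or the 6-library fit.

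Immediate early genes, which are transcribed within minutes of a stimulus, lay mostly lower on PEDOT:PSS relative to P(rGO). This held in 16 of 17 tested, with 6 without overlap (against 18.0% of all genes lower), at a median of -0.22. The median was -0.11 without P(rGO) replicate 1 and -0.33 without P(rGO) replicate 2. EGR3 was at 3.00 and 3.84 CPM on PEDOT:PSS, 3.79 and 3.55 CPM on ITO, and 5.44 and 6.71 CPM on P(rGO), and EGR1 was at 179 and 203 CPM on PEDOT:PSS, 223 and 212 CPM on ITO, and 274 and 242 CPM on P(rGO). In both P(rGO) was highest in each of its libraries. FOSL2 was instead highest on ITO, at 19.9 and 22.9 CPM against 14.5 and 16.2 CPM on P(rGO), with 13.5 and 16.8 CPM on PEDOT:PSS.

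Genes that mark the neuronal state gave smaller and mixed differences. In the neurite and growth cone list 12 of 26 lay higher and 14 lower on PEDOT:PSS relative to P(rGO), at a median of 0.00, and MAP2, a dendritic microtubule protein, was at 433 and 452 CPM on PEDOT:PSS, 420 and 356 CPM on ITO, and 418 and 457 CPM on P(rGO). Of 28 synapse and vesicle genes, 22 lay lower on PEDOT:PSS relative to P(rGO), at a median of -0.07. The granin and neuropeptide list, which holds GAL, had 8 of 11 lower at a median of -0.18, which was -0.03 without P(rGO) replicate 1. Its vesicle protein SCG2 was at 1030 and 1150 CPM on PEDOT:PSS, 1280 and 1230 CPM on ITO, and 1370 and 1390 CPM on P(rGO). The factor ISL1, of the adrenergic list, was lowest on ITO, at 246 and 214 CPM, against 330 and 287 CPM on PEDOT:PSS and 301 and 321 CPM on P(rGO). NTRK2, the BDNF receptor, was at 327 and 463 CPM on PEDOT:PSS, 359 and 373 CPM on ITO, and 345 and 464 CPM on P(rGO), so its films overlapped. CYP26A1, which degrades retinoic acid, varied widely within films, at 7.08 and 43.9 CPM on PEDOT:PSS, 37.8 and 79.9 CPM on ITO, and 91.0 and 51.7 CPM on P(rGO).

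**Figure D4:**
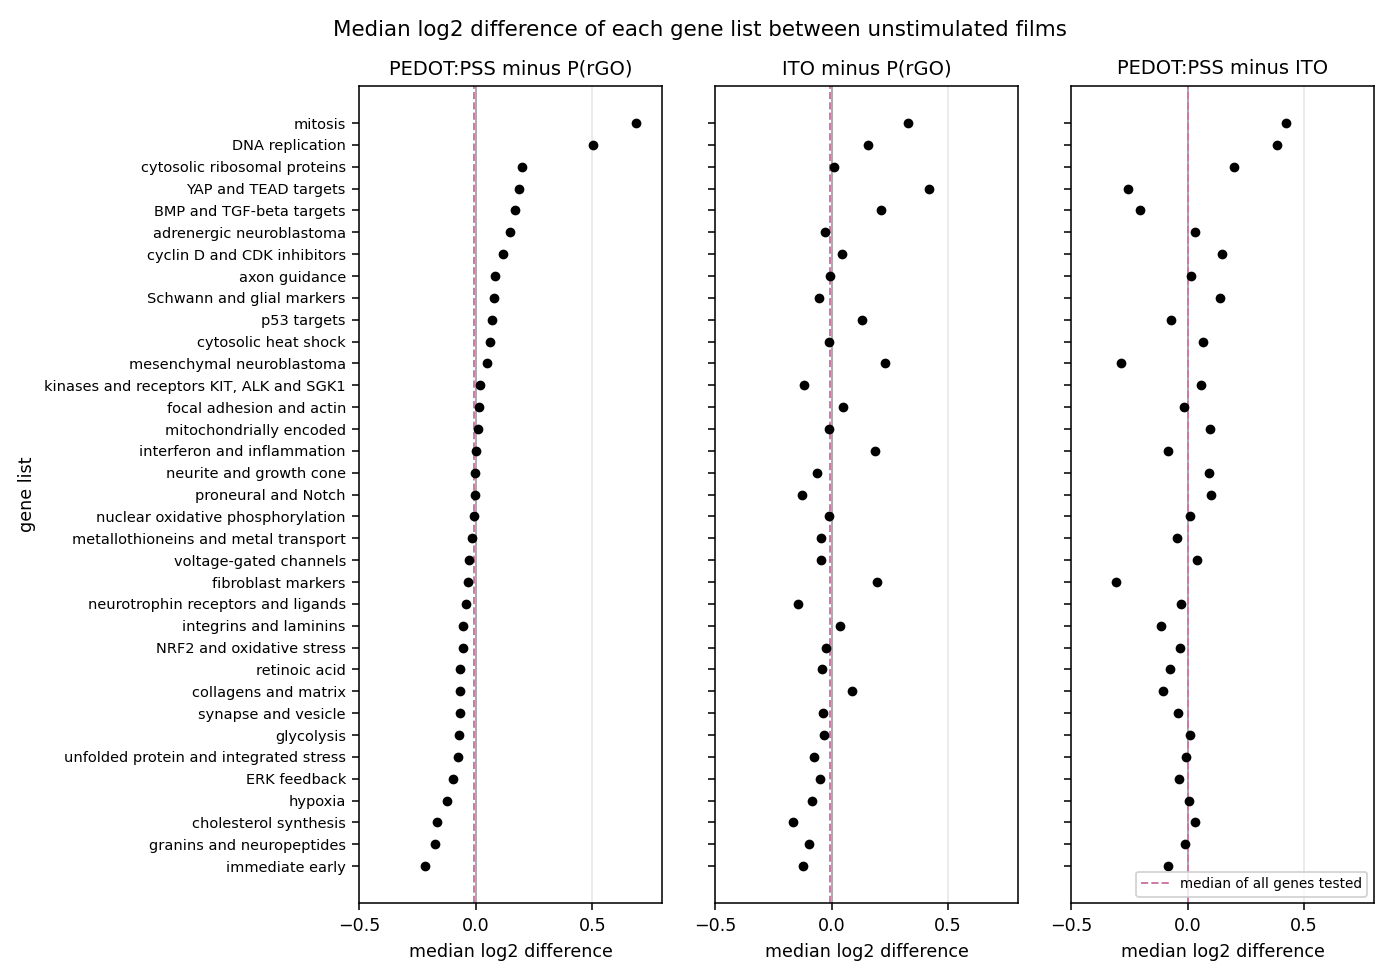
Median log2 difference of each of 35 gene lists (rows) in the 3 comparisons of unstimulated films (panels), with the median of all tested genes as a dashed line. For PEDOT:PSS minus P(rGO) the mitosis list lies at 0.69, DNA replication at 0.50 and ribosomal proteins at 0.20, and immediate early genes lie at -0.22.

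The stimulated films gave 6 further libraries on the same materials. Their film differences did not enter the rule for named genes, but they shared in the spread that ranked those genes by p, and earlier results of all these libraries were known. Among them 28 of 29 mitosis genes lay higher on PEDOT:PSS relative to P(rGO) without overlap, at a median of 1.02, and 28 of 29 lay higher on ITO than on P(rGO) without overlap, at 1.21. The second median was 0.61 without stimulated ITO replicate 2. In that stimulated pair of PEDOT:PSS and P(rGO), 18.7% of all genes lay higher without overlap, and in the pair of ITO and P(rGO) 15.8% did. CCNB2 was at 12.9 and 14.7 CPM on stimulated PEDOT:PSS, 9.95 and 24.5 CPM on stimulated ITO, and 4.60 and 7.44 CPM on stimulated P(rGO). The stimulated ITO libraries spanned the PEDOT:PSS values, and the mitosis median of PEDOT:PSS over ITO was -0.19, which became -0.59 without stimulated ITO replicate 1 and 0.40 without stimulated ITO replicate 2. Of the 21 genes called by the 6-library fit, 17 lay on the same side of P(rGO) without overlap when stimulated. The 16-library edgeR fit called 0 genes in each stimulated pair, where 589 (3.26%), 636 (3.52%) and 237 (1.31%) genes had an unadjusted p under 0.05 for PEDOT:PSS against P(rGO), ITO against P(rGO) and PEDOT:PSS against ITO. DESeq2 called 4 (0.0221%), 10 (0.0553%) and 0 in the same order.

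The genes that were highest on unstimulated P(rGO), which had been chosen by small p there, had these levels on the stimulated films. GAL was at 202 and 219 CPM on stimulated PEDOT:PSS, 127 and 186 CPM on stimulated ITO, and 230 and 101 CPM on stimulated P(rGO), whose libraries spanned the others. ENC1 was at 54.4 and 71.5 CPM on stimulated PEDOT:PSS, 21.6 and 43.2 CPM on stimulated ITO, and 31.2 and 37.9 CPM on stimulated P(rGO), so that both P(rGO) libraries lay below PEDOT:PSS and within the ITO range. SEMA3C and SLIT2 overlapped between stimulated PEDOT:PSS and P(rGO), and so did SLIT1, which had been highest on unstimulated PEDOT:PSS. The test of the difference itself, stimulated minus unstimulated, called 0 genes for each film pair in edgeR and in DESeq2, and the unadjusted p under 0.05 was met by 203 (1.12%), 252 (1.39%) and 128 (0.708%) genes for PEDOT:PSS against P(rGO), ITO against P(rGO) and PEDOT:PSS against ITO.

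Of the 10 named genes of each pair, 2 kept their direction when stimulated for PEDOT:PSS against P(rGO), both division-linked (CDCA7L and FAM83D), against 57.8% of all tested genes. For ITO against P(rGO) 10 of 10 kept it, against 56.2% of all genes, and for PEDOT:PSS against ITO 10 of 10, against 53.8%. Without overlap between the stimulated films, 6 and 7 of the 10 kept it. Over all genes, stimulated ITO lay without overlap above stimulated P(rGO) in 15.8% and below it in 13.9%. Stimulated PEDOT:PSS lay without overlap above stimulated ITO in 15.3% and below it in 16.1%. ID1 was at 11.8 and 20.9 CPM on stimulated ITO, against 3.66 and 2.71 CPM on stimulated P(rGO), and ID2 was at 19.5 and 44.9 CPM, against 10.3 and 11.2 CPM. Stimulated ITO replicate 2 was again the higher of the ITO pair, and replicate 1 was above both P(rGO) libraries in each gene. PEG3, at 53.7 and 60.4 CPM on stimulated ITO, did not show the 187 CPM of unstimulated replicate 2.

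**Figure D5:**
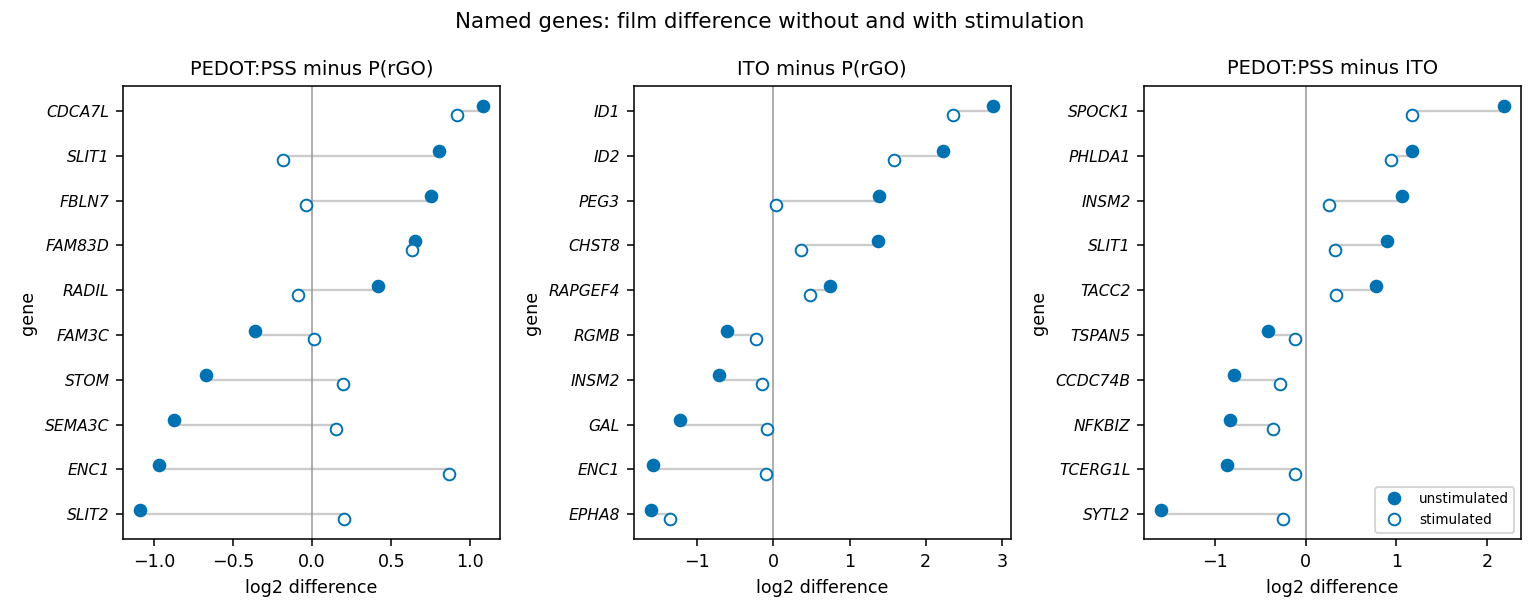
Log2 difference of the 10 named genes of each film pair (rows) among unstimulated films (filled points) and stimulated films (open points), from the 16-library fit. Between PEDOT:PSS and P(rGO) 2 of the 10 keep their sign, and in each of the other pairs all 10 do.

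Averaged over unstimulated and stimulated films, with 4 libraries per film, the 16-library fit called 0.0% of genes in each pair and in the joint test, with an unadjusted p under 0.05 for 615 genes (3.4%) in PEDOT:PSS against P(rGO), 727 (4.02%) in ITO against P(rGO), 415 (2.3%) in PEDOT:PSS against ITO and 601 (3.32%) jointly. DESeq2 called 39 (0.216%), 26 (0.144%), 8 (0.0442%) and 54 (0.299%) in that order. A fit of the 12 film libraries called 84 of 17528 genes (0.479%) in PEDOT:PSS against P(rGO), 83 (0.474%) higher and 1 (0.00571%) lower, with 1397 (7.97%) under an unadjusted p of 0.05. The joint test called 31 (0.177%), with 1330 (7.59%) under that limit. ITO against P(rGO) and PEDOT:PSS against ITO had 0 calls, with 1433 (8.18%) and 840 (4.79%) genes under the limit. Of the 84, 26 belonged to the mitosis or replication list, and 11 were among the 21 calls of the 6-library fit, which is 13.1% of the 84 and 52.4% of the 21. TK1 was called at 1.13 (SE 0.12, edgeR adjusted p = 0.0076) and RRM2 at 1.12 (edgeR adjusted p = 0.011), and the 1 gene called lower was PIK3IP1, an inhibitor of PI3 kinase, at -0.65 (edgeR adjusted p = 0.040). The 84 calls became 0 without unstimulated PEDOT:PSS replicate 1 or without stimulated PEDOT:PSS replicate 1, 1 without unstimulated P(rGO) replicate 2 and 2 without stimulated PEDOT:PSS replicate 2.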

How the data were processed

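Poly(A) RNA was sequenced from stranded libraries, and the authors deposited 1 table of read counts per gene for the 16 libraries, made with STAR and HTSeq on GRCh38.p13 (hg38), per the submitters' processing notes. No source used here gives the strand option of HTSeq, so antisense and overlapping genes are uncertain. The table held 69222 gene rows, of which 32387 were 0 throughout, and 5 summary rows, which were left out of library sizes. Reads assigned to no feature were 5.70% to 6.36% of the total in the 6 libraries, and the library totals limit the precision of low genes.

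Counts were filtered with filterByExpr, scaled by TMM and tested with edgeR 4.0.16 (robust quasi-likelihood, R 4.3.3) with 1 mean per group over 16 libraries, and Benjamini-Hochberg adjustment at 0.05. The scripts were tested on simulated data. Alternatives were DESeq2 1.42.0, other scaling, no filter, fits of 6, 12 and 14 libraries, a replicate block and each library left out. CPM used the TMM-scaled totals, and log2 list means used a pseudocount of 0.5. Named genes were protein-coding, reached a mean of 5 CPM in 1 of the 2 films and did not overlap between films, with the 5 of smallest p taken in each direction. The 2 members of smallest joint p were taken from each described list, together with up to 10 genes called by an alternative where the 16-library fit called none. Values of MKI67, PCNA, MAP2, NTRK2, EGR1, SCG2 and HAND2 are given as familiar members of their lists, chosen after their values were seen. The members and the 35 gene lists were chosen with earlier results of these data known. Promoter windows came from RefSeq on GRCh38.p14.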

Additional observations from a re-analysis of the deposited data

Results flagged for a closer look

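In 3 lists the list means of a film pair's libraries did not overlap, and their order was opposite without and with stimulation. The values given are the median log2 differences of these lists. The difference was not tested for the lists, and the test per gene called 0 genes. For cytosolic ribosomal proteins, PEDOT:PSS minus P(rGO) was 0.20 among unstimulated and -0.13 among stimulated films. For the synapse and vesicle list, PEDOT:PSS minus P(rGO) was -0.0671 among unstimulated and 0.0388 among stimulated films. For the axon guidance list, ITO minus P(rGO) was -0.0088 among unstimulated and 0.0934 among stimulated films, values that are close to the median of all genes (-0.01) in the unstimulated pair.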

How the results depend on the processing

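Relative log expression scaling, the fit of 14 libraries and the replicate block over 16 libraries left every count of calls at 0. In the order PEDOT:PSS against P(rGO), ITO against P(rGO), PEDOT:PSS against ITO and joint test, the unstimulated counts of 0 became 16, 48, 48 and 85 with no low-count filter, 0, 0, 2 and 1 with DESeq2, and 21, 1, 0 and 1 in the 6-library fit. The averaged counts of 0 became 155, 234, 84 and 302 with no filter, 39, 26, 8 and 54 with DESeq2, and 84, 0, 0 and 31 in the 12-library fit. The counts of differing film differences became 3, 15 and 1 with no filter. Of the unstimulated calls with no filter, 0, 0, 1 and 3 were genes that the filter removes. Of the averaged ones, 1, 2, 0 and 3 were. Nearly all of these calls were thus of genes that the 16-library fit had tested and not called. The cause was not tested. With each library left out, the 16-library counts ranged over 0 to 0, 0 to 9, 0 to 10 and 0 to 9 unstimulated, and 0 to 0, 0 to 12, 0 to 6 and 0 to 10 averaged. The count for whether ITO over P(rGO) differed between stimulated and unstimulated films was 0 to 2. All counts above 0 came without unstimulated ITO replicate 1. The 6-library counts ranged over 0 to 30, 0 to 96, 0 to 100 and 0 to 147, and the 12-library counts over 0 to 161, 0 to 176, 0 to 30 and 0 to 178, ranges added after seeing the data. Replicate numbers were not taken as pairs: each replicate number has its own prefix in the column names, but no label says what it marks, and there are only 2 numbers. Correlations of replicate differences were 0.130 to 0.239 among the unstimulated films, 0.0575 to 0.366 over all film groups and -0.228 to 0.207 where plates were included, so a shared origin of same-numbered film libraries is possible. With the replicate block, added after seeing the data, the 6-library fit called 99, 8, 7 and 70 and the 12-library fit 146, 90, 6 and 168. The 4-library fit of PEDOT:PSS and P(rGO) called 0. The mitosis median between ITO and P(rGO), 0.33, ranged over 0.26 to 0.36 with each library left out. No log2 difference of the genes named for a film pair, or called for one by the 6-library fit, changed sign under these alternatives to the 16-library fit. Some list medians did. Between ITO and P(rGO) the median ranged over -0.01 to 0.23 for p53 targets and -0.07 to 0.09 for ribosomal proteins. With 2 libraries per film, small differences in low genes cannot be resolved.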

Other observations

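Matrix and adhesion genes were not described above. Of the 21 tested integrin and laminin genes, 15 lay lower and 6 higher on PEDOT:PSS than on ITO, 9 of the lower ones without overlap (15.3% of all genes), at a median log2 difference of -0.11, and none passed the 16-library fit. The YAP and TEAD target list also holds the factors YAP1 and WWTR1 themselves. Of its 14 tested genes, 11 lay higher on ITO than on P(rGO), at a median of 0.42. That median was 0.09 without ITO replicate 1 and 0.67 without P(rGO) replicate 2. The whole list summed to 677 and 669 CPM on ITO and 607 and 675 CPM on P(rGO), so the films overlapped. Of 18 p53 targets, 15 lay higher on ITO than on P(rGO) and 15 on PEDOT:PSS than on P(rGO), at medians of 0.13 and 0.07. The first was -0.01 without ITO replicate 2 and 0.23 without ITO replicate 1, and the second 0.12 without PEDOT:PSS replicate 2 and 0.04 without PEDOT:PSS replicate 1 or P(rGO) replicate 1. The 13 mitochondrially encoded genes had a median of 0.01 between PEDOT:PSS and P(rGO), with -0.23 without PEDOT:PSS replicate 1 and 0.23 without PEDOT:PSS replicate 2, and the 29 nuclear genes of oxidative phosphorylation one of -0.01.

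For markers of mesenchymal and fibroblast-like cells, the medians between ITO and P(rGO) fell when ITO replicate 2 was left out. Of 17 tested mesenchymal neuroblastoma genes 12 lay higher on ITO than on P(rGO), at a median of 0.23, and at 0.01 without ITO replicate 2. The whole mesenchymal list summed to 1454 and 1385 CPM in ITO replicates 1 and 2, against 1502 and 1423 CPM on P(rGO). Of 10 tested fibroblast markers 9 lay higher, at a median of 0.20, which was 0.06 without ITO replicate 2 and 0.03 without P(rGO) replicate 2. The factors WWTR1 and YAP1, which relay Hippo signals, were nearly silent, with 10 and 7 counts of WWTR1 on ITO and 0 on P(rGO), and 4 and 21 counts of YAP1 on ITO and 0 and 3 on P(rGO). SOX5, chosen after its values were seen, had 3 and 155 counts on ITO, 9 and 6 on P(rGO) and 3 and 3 on PEDOT:PSS. The part of other cells in these values was not tested.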
